A study of Mus musculus with 29 samples.

Results

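The comparison set the caudate of 4 wild-type mice aged 18 months beside that of 5 wild-type mice aged 6 months, across every gene with 1 symbol. Its 9 arrays were chosen by the genotype and age in their labels, out of 29 arrays from 6 groups, and 19938 genes were tested. The mice were littermates of the HdhQ150 line, in which an expanded CAG repeat has been knocked into the mouse huntingtin gene Htt, and they carry the unexpanded gene. All were bred on the mixed 129/Ola x C57BL6/J background, and the labels list no treatment. At 6 months the group held 2 males (mice WT-1002 and WT-1004) and 3 females (mice WT-1011, WT-1018 and WT-1020), and at 18 months 4 females (mice WT-400, WT-401, WT-414 and WT-431). The ages are different animals, 1 array each, and age cannot be told apart from anything else that separated the mice of 6 and 18 months. HdhQ150 mice of 6 months (n = 5) and 18 months (n = 4) on the same background, and wild-type mice of 12 months (n = 5), are set beside them where stated.

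The caudate nucleus is part of the striatum, whose main cells are inhibitory projection neurons. They receive glutamate input from the cortex and dopamine from the midbrain, and fall into a direct pathway, marked by the dopamine receptor gene Drd1, and an indirect pathway, marked by Drd2 and the enkephalin precursor gene Penk. In ageing brain, astrocytes and microglia, the brain's resident immune cells, are known to raise genes such as those of complement and the astrocyte filament Gfap. Neurons express immediate early genes such as Egr2 within minutes of activity, so the level of these genes at dissection depends on what the animal was doing.

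Striatal markers were present in all 9 arrays. On the log2 scale of the deposited values Penk lay between 12.11 and 12.81, Ppp1r1b, which encodes the dopamine-regulated phosphatase inhibitor DARPP-32, between 10.95 and 11.51, Drd2 between 10.60 and 10.92 and Drd1 between 9.43 and 9.95. Slc17a7, the glutamate transporter gene of cortical excitatory neurons, was also present in all 9. It lay between 10.71 and 11.57 at 6 months, and at 10.78, 11.60, 11.66 and 11.77 at 18 months. The fitted difference was 0.27 (limma adjusted p = 0.774). Ttr, the transthyretin gene that marks choroid plexus, stood at 12.77 and 12.84 in the 6-month mice WT-1002 and WT-1020, and between 7.36 and 9.01 in the other 7 mice. Neither the cortical list (0 of 12 measured markers) nor the choroid plexus list (0 of 13) had a member past the limma threshold between the ages (0 and 3 at an unadjusted p below 0.05). Over the 12 cortical markers the mean level ranged from 8.39 to 9.09 at 6 months and from 8.30 to 9.13 at 18 months. Over the 13 choroid plexus markers it ranged from 6.33 to 7.83 at 6 months and from 6.47 to 6.65 at 18 months. The part of cortical or choroid plexus RNA in the results was not tested. Arrays correlated between 0.984 and 0.994 within an age and between 0.979 and 0.991 across the ages. Xist went against the labelled sex in 0 of these 9 arrays, and in 1 of all 29, that of the 6-month HdhQ150 mouse 1023.

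Between 6 and 18 months 1250 genes passed the threshold, a limma p adjusted over all 19938 genes below 0.05, which is 6.27% of the genes tested. Of these, 662 (3.32% of genes) were higher and 588 (2.95%) lower at 18 months. Counts in the gene lists below are to be read beside these shares. An unadjusted p below 0.05 was reached by 4506 genes (22.6%). The changes were mostly small: the median log2 difference was 0.46 among the higher genes and -0.33 among the lower. A change of at least 1.5-fold was seen in 178 called genes (0.893% of genes), 147 higher and 31 lower, and one of at least 2-fold in 15 (0.0752%), 11 higher and 4 lower. The ages did not overlap in 1812 genes (9.09%), with all 18-month mice higher in 943 (4.73%) and lower in 869 (4.36%), and 489 of the higher and 443 of the lower calls were among them. All differences are 18 minus 6 months, fitted with a term for the labelled sex. The fit covered all 29 arrays, so arrays outside the comparison also entered the estimate of the spread. Each array centred on its own median gave 62.3% of calls higher, against 53.0% as deposited. When only the 9 arrays compared were fitted, 248 genes passed in place of 1250, with 133 higher and 115 lower. The count also moved with single mice: it was 490 without mouse WT-400, 709 without WT-414, 729 without WT-431, 780 without WT-1018, 590 without WT-1020 and 2437 without WT-1011. Of the 1250 genes, 335 passed with all 9 mice and with each of the 9 left out in turn, 177 of them higher and 158 lower. Of the 335, 112 were chemosensory receptor genes, described below, all of them among the higher.

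Genes with a higher level and genes with a lower level at 18 months lay in different parts of the brightness range. In the dimmer 50% of the genes 524 were called higher and 62 lower, and in the brighter 50% 138 were called higher and 526 lower. The median difference over all genes was 0.03, but it was 0.17 in the dimmest 10% of genes and -0.04 in the brightest 10%. The dim genes called were to a large part chemosensory receptors, the odorant (Olfr), vomeronasal (Vmn) and taste (Tas2r) receptors that sensory cells of the nose and tongue express. These families were chosen after their values were seen. Of 1228 measured, 358 were higher and 0 lower (29.2% of them and 54.1% of all higher calls), with 317 of 1027 odorant, 35 of 167 vomeronasal and 6 of 34 taste receptors higher. After cyclic loess between arrays, an added alternative, 148 of the 1228 were called. The mean level of the 1228 genes was 5.13 in mouse WT-1002, 5.14 in WT-1020, 5.17 in WT-1004, 5.22 in WT-1018 and 5.33 in WT-1011 at 6 months. At 18 months it was 5.39 in mouse WT-401, 5.49 in WT-414, 5.57 in WT-400 and 5.70 in WT-431, so every 18-month mouse lay above every 6-month mouse. Wild-type mice of 12 months lay between 5.54 and 5.70, and HdhQ150 mice between 5.03 and 5.32 at 6 months and between 5.38 and 5.50 at 18 months.

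**Figure D1:**
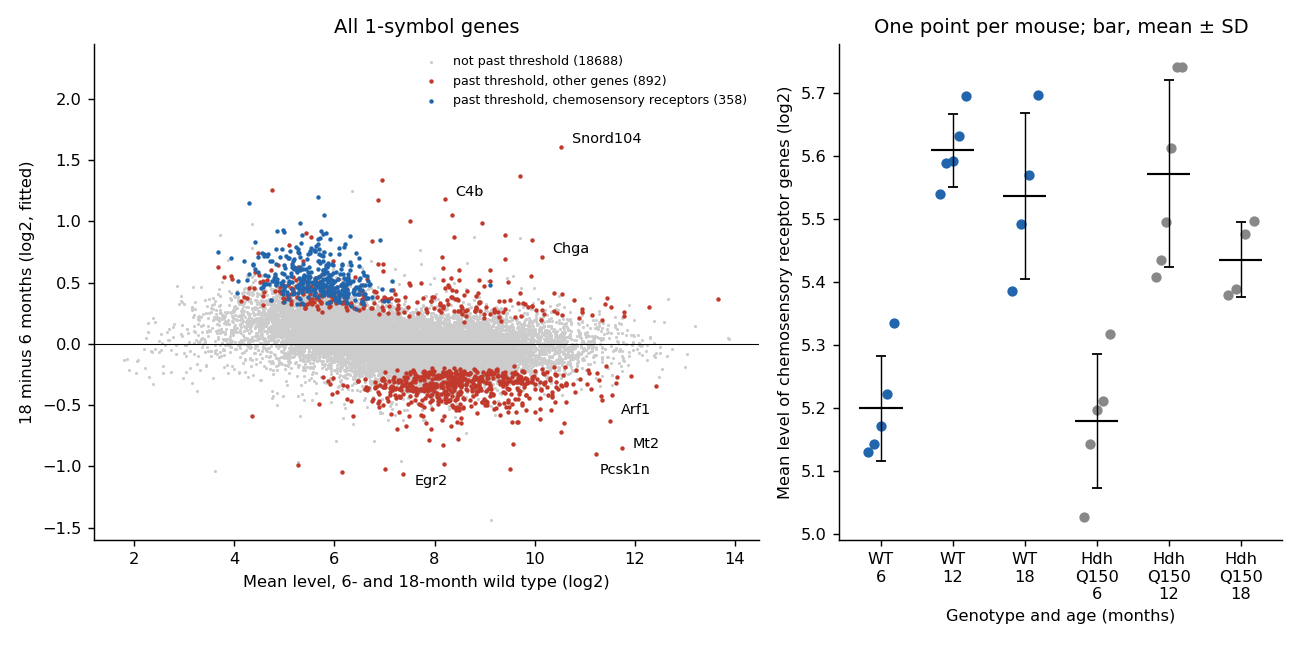
Left, fitted difference (18 minus 6 months, log2) against mean level (log2) for every gene with 1 symbol, with the 892 called genes that are not chemosensory receptors in red and the 358 called receptors in blue. Right, mean level of the 1228 chemosensory receptor genes in each mouse (points) with the group mean ± SD, where the 18-month wild-type mice (5.39 to 5.70) lie above the 6-month ones (5.13 to 5.33).

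Single receptor genes followed the family. Olfr1134 stood at 4.79, 4.86, 5.0, 5.23 and 5.62 at 6 months and at 6.01, 6.24, 6.33 and 6.43 at 18 months, with no overlap. Its difference was 1.2 (SE 0.2, limma adjusted p = 0.000788). Olfr342 rose by 1.05 (SE 0.168, limma adjusted p = 0.000503) and Vmn1r230 by 0.77 (SE 0.119, limma adjusted p = 0.000404). Among the 20 higher genes with the smallest p, 12 were receptors of this kind. Because this level moved with age, the fit was repeated with each array's chemosensory mean as a covariate, an alternative added after the data were seen, which called 57 genes. Of these 38 rose and 19 fell, and 48 were among the 1250 with the same direction. The covariate is the receptors' own mean, so that 0 of the 57 were receptors follows largely from how it was made. In wild type every 18-month mouse lay above every 6-month mouse in that mean, so the covariate also takes up differences of age. A call can be lost with it although the difference grows, as for Gfap below. A lost call therefore does not tell whether the dim shift has a part in a given gene's change, which was not tested.

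The clearest rise among named genes was in C4b (probe set 10450242), which encodes the complement component C4 and is expressed by astrocytes and other glia. The 6-month mice stood at 7.53, 7.57, 7.62, 7.66 and 7.67, and the 18-month mice at 8.39, 8.81, 8.91 and 9.11. The lowest 18-month mouse was thus above every 6-month mouse, and the 12-month mice, at 7.86 to 8.37, lay between them. The difference was 1.18 (SE 0.109), 2.27-fold (limma adjusted p = 1.19e-07). It was 1.27 with the chemosensory covariate (limma adjusted p = 4.13e-05) and it passed with every mouse left out in turn. C4b was the only one of 29 measured genes of complement and antigen presentation past the threshold, and 25 of the 29 differences were positive, with a median of 0.11 against 0.03 over all genes. C4a stood at 0.35 (limma adjusted p = 0.0638), C1qa, which encodes a chain of the complement starter C1q, at 0.29 (limma adjusted p = 0.0853), and B2m, the light chain of class I antigen presentation, at 0.04. The class II invariant chain gene Cd74 stood at 0.11 (limma adjusted p = 0.688).

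Microglial genes were for the most part not past the threshold. Of 21 measured microglia markers 1 was higher and 0 lower, with a median of 0.06. That gene was Trem2, the microglial receptor for lipids, whose 6-month mice stood at 7.64, 7.80, 7.85, 7.86 and 7.96 and 18-month mice at 7.93, 8.12, 8.25 and 8.37. The lowest 18-month mouse lay below the highest 6-month mouse. Trem2 rose by 0.39 (SE 0.0891, limma adjusted p = 0.01). Defining markers such as Tmem119 (0.06), Cx3cr1 (0.05) and P2ry12 (-0.04) stayed near 0 difference, but others did not. With Trem2, 7 of the 21 reached an unadjusted limma p below 0.05. The rest of these were Olfml3 (0.33), Aif1 (0.27), Selplg (0.26), Ctss (0.25), Fcer1g (-0.25) and Laptm5 (-0.23). The mean level of the 21 markers ranged from 7.70 to 7.88 at 6 months and from 7.76 to 7.97 at 18 months, so these ranges overlapped, and fewer or more cells of a type cannot be told apart from less or more RNA per cell in such bulk samples. Among 26 genes of activated microglia 3 were higher and 1 lower.

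The 3 were the integrin gene Itgax, the lysozyme gene Lyz2 and the chemokine gene Ccl3. Itgax, known from microglia around ageing white matter and plaques, stood at 5.89 to 6.21 at 6 months and at 6.36 to 6.68 at 18 months and rose by 0.45 (SE 0.111, limma adjusted p = 0.0148). Lyz2 rose by 0.65 (SE 0.183, limma adjusted p = 0.0297) and Ccl3 by 0.43 (SE 0.107, limma adjusted p = 0.0149), again with no overlap of the ages. The fourth, Apoe, the main lipoprotein gene of astrocytes, fell by 0.26 on the log2 scale (SE 0.0777, limma adjusted p = 0.0412). The median over the 26 genes was 0.13, but it was -0.06 when only the brighter 50% of the genes were fitted. Trem2, Itgax, Lyz2, Ccl3 and Apoe all missed the threshold with the chemosensory covariate (limma adjusted p of 0.177 for Trem2 and 0.394 for Itgax). Leaving out mouse WT-400 took Trem2 to a limma adjusted p of 0.0589, mouse WT-414 or WT-1020 took Itgax to at most 0.0641, mouse WT-400 or WT-414 took Ccl3 to at most 0.062, and mouse WT-400, WT-414, WT-1018 or WT-1020 took Lyz2 to at most 0.0983. Apoe passed without mouse WT-1004 or WT-1011 only and reached 0.113 otherwise.

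Other immune lists held few calls. Of 34 interferon response genes, 1 was higher, the transcription factor gene Irf8 (0.25, limma adjusted p = 0.0417), and 1 lower, the membrane protein gene Ifitm3 (-0.59, limma adjusted p = 0.037), with a median of 0.11. Both missed with the chemosensory covariate, Irf8 also without any mouse but WT-431 or WT-1011 (limma adjusted p at most 0.144) and Ifitm3 without any but WT-400, WT-1002 or WT-1011 (at most 0.0994). Of 18 lymphocyte and immunoglobulin genes, 0 passed by limma (2 at an unadjusted p below 0.05), and their median of 0.15 became -0.02 with the chemosensory covariate. Igha, the heavy chain of immunoglobulin A, was on none of the lists and was picked after its value was seen. It stood at 5.82, 6.32, 6.36, 6.53 and 6.64 at 6 months and at 6.86, 7.04, 7.29 and 7.40 at 18 months. Its difference was 0.84 (SE 0.151, limma adjusted p = 0.00175), and 0.21 with the chemosensory covariate (limma adjusted p = 0.635). Ly96, the partner of the endotoxin receptor TLR4, was among the 5 largest falls. It stood at 5.61 to 5.95 at 6 months and at 4.36 to 5.13 at 18 months, a difference of -0.99 (SE 0.172, limma adjusted p = 0.00123), and missed the threshold with the covariate (limma adjusted p = 0.11).

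Astrocyte genes moved in both directions: of 23 measured, 2 were higher and 4 lower (3.32% and 2.95% of all genes), with a median of -0.05. Gfap, the filament protein of reactive astrocytes, stood at 7.99, 8.04, 8.27, 8.34 and 8.36 at 6 months. At 18 months it stood at 8.28 in mouse WT-431 and at 8.71, 8.99 and 9.19 in the other 3, so only mouse WT-431 fell within the 6-month range. The difference was 0.60 (SE 0.169), 1.52-fold (limma adjusted p = 0.0305). Glul, which encodes the glutamine synthetase of astrocytes, rose by 0.23 (limma adjusted p = 0.0374), but its 2 probe sets averaged gave 0.15 (limma adjusted p = 0.171). Gja1, which encodes the gap junction protein connexin 43, fell by 0.51 on the log2 scale (SE 0.0987, limma adjusted p = 0.00281). Its 6-month mice stood at 9.38, 9.70, 9.73, 9.85 and 9.86 and its 18-month mice at 8.95, 9.15, 9.15 and 9.43, with 1 mouse of each age overlapping. The glutamate transporter gene Slc1a3 fell by 0.28 (limma adjusted p = 0.0236), the neurotensin receptor gene Ntsr2 by 0.28 (limma adjusted p = 0.0474) and the transcription regulator gene Id3 by 0.33 (limma adjusted p = 0.0413), each on the log2 scale. S100b (0.01), Aqp4 (-0.03), Slc1a2 (0.07) and Aldh1l1 (-0.07) were not past the threshold. All 6 calls were lost with the chemosensory covariate (Gfap 0.74, limma adjusted p = 0.202). Gja1 passed with each mouse left out in turn. Gfap missed without mouse WT-400, WT-414, WT-1004 or WT-1018 (0.0513 to 0.129), Slc1a3 without WT-400, WT-414, WT-1018 or WT-1020 (0.0516 to 0.118), Id3 without WT-400, WT-431, WT-1004, WT-1018 or WT-1020 (0.0634 to 0.165), Ntsr2 without WT-400, WT-401, WT-431, WT-1002, WT-1018 or WT-1020 (0.0562 to 0.135) and Glul without any but mouse WT-1011 (0.0563 to 0.107), all limma adjusted p.

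Serpina3n, a protease inhibitor gene of reactive astrocytes, had the largest difference on the astrocyte list without passing. It stood at 7.92, 8.04, 8.15 and 8.37 in 4 of the 6-month mice and at 9.80 in mouse WT-1002, and at 8.30, 9.45, 9.63 and 10.12 at 18 months. The ages overlapped, and the difference was 1.25 (SE 0.404, limma adjusted p = 0.0603). Without mouse WT-1002 it was 1.41 (limma adjusted p = 0.0398), and without mouse WT-401 it was 1.60 (limma adjusted p = 0.0174). Both values are from among the 9 leave-outs of a wild-type mouse, and the gene also missed the threshold with the chemosensory covariate. It was named after its values were seen.

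Immediate early genes were lower at 18 months in 3 of 18 measured members and higher in 0, beside 2.95% and 3.32% of all genes. Their median was -0.34 against 0.03 over all genes. The 3 were Egr2, Nr4a1 and Nr4a3, which encode transcription factors induced by neuronal activity. Their promoters carry matches to TGACG, the short form of the cAMP response element through which activity acts on such genes. The windows from RefSeq (GRCm38.p6), 250 bases before to 50 after the listed start, are shown with every match on either strand in capitals, because these genes moved together. Egr2 has 5 listed starts, and the one furthest downstream is shown.

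Egr2, chr10:67537680-67537979, plus strand: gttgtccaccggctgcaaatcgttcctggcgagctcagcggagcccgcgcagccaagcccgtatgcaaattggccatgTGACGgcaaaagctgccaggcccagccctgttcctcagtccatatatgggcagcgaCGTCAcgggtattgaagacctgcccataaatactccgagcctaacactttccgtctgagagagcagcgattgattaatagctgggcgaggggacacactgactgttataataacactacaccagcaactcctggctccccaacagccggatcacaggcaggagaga
Nr4a1, chr15:101266596-101266895, plus strand: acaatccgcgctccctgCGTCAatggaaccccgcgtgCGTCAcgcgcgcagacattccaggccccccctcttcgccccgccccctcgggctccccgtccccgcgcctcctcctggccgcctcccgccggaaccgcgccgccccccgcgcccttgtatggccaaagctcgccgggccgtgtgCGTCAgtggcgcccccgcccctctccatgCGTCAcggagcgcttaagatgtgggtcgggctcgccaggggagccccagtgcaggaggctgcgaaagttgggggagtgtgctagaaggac
Nr4a3, chr4:48045055-48045354, plus strand: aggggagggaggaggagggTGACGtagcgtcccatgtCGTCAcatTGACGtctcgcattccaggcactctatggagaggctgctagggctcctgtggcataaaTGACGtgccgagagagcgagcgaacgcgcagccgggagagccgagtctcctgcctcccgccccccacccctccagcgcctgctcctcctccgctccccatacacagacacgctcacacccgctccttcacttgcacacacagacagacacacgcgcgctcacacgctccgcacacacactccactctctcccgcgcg

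The windows hold 2, 4 and 4 matches. Of all 32851 promoter windows of this length 20.8% hold at least 1 match, 5.01% at least 2 and 0.231% at least 4. Of the 18 listed genes 14 had a window, and 12 of those had a match in at least 1 window, against 23% of all genes. Only Egr2, Nr4a1 and Nr4a3 of these 12 were called. A full site, TGACGTCA, which contains the short form, occurs in 1.79% of windows. These matches describe letters and not binding, and whether they have a part in the falls was not tested.

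Egr2 stood at 7.26, 7.55, 8.12, 8.17 and 8.23 at 6 months and at 6.66, 6.67, 6.9 and 7.33 at 18 months. The highest 18-month mouse lay just above the lowest 6-month mouse. Egr2 fell by 1.07 on the log2 scale (SE 0.18), 2.09-fold (limma adjusted p = 0.000966). Nr4a3 stood at 8.07, 8.48, 8.61, 8.66 and 8.95 at 6 months and at 7.44, 7.69, 7.94 and 8.09 at 18 months, and fell by 0.83 (SE 0.165, limma adjusted p = 0.00369). Nr4a1 stood at 9.0 in the 6-month mouse WT-1002 and at 10.07, 10.24, 10.24 and 10.42 in the others, and at 8.38, 8.87, 9.21 and 9.66 at 18 months. The ages overlapped through mouse WT-1002, and the fall was 1.02 on the log2 scale (SE 0.256, limma adjusted p = 0.0158). None of the 3 was lower in the 12-month mice, in which Egr2 lay between 8.10 and 8.66, Nr4a3 between 8.35 and 8.77 and Nr4a1 between 10.17 and 10.71. Of the members that missed the threshold, Fos stood at -0.52 (limma adjusted p = 0.0505), Egr4 at -0.38 (0.0539), Egr1 at -0.42 (0.075), Arc at -0.58 (0.0989) and Junb at -0.18 (0.473). In females alone the 3 falls were 1.28, 0.95 and 1.27 for Egr2, Nr4a3 and Nr4a1. All 3 missed the threshold with the chemosensory covariate (limma adjusted p of 0.0846, 0.459 and 0.539), and Nr4a1 also without mouse WT-400, WT-431, WT-1018 or WT-1020 (0.0535 to 0.0753).

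Clock genes were lower in 2 of 18 measured members and higher in 0 (2.95% and 3.32% of all genes), with a median of -0.14. Per1, a repressor of the circadian loop that is also induced by activity and glucocorticoids, stood at 9.13, 9.36, 9.46, 9.59 and 9.61 at 6 months and at 8.74, 8.90, 9.0 and 9.09 at 18 months, with no overlap. It fell by 0.53 on the log2 scale (SE 0.109, limma adjusted p = 0.00433). Ciart, a clock-controlled repressor gene, fell by 0.47 (SE 0.108, limma adjusted p = 0.00999), but by 0.35 with a limma adjusted p of 0.0605 when its 2 probe sets were averaged. The core clock genes Arntl (-0.07), Per2 (-0.17), Cry1 (-0.05) and Clock (-0.20, limma adjusted p = 0.0621) were not past the threshold. Neither were Dbp (-0.09), Hlf (-0.25), Nr1d2 (-0.24) and Bhlhe40 (-0.42, limma adjusted p = 0.0827). An unadjusted limma p below 0.05 was reached by 6 of the 18. The labels give no hour of dissection, and both calls were lost with the chemosensory covariate (limma adjusted p of 0.371 for Per1 and 0.526 for Ciart).

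The metallothionein genes Mt1 and Mt2 fell together. They encode small proteins that bind zinc and copper, are made by astrocytes in brain, and are induced through metal response elements and by glucocorticoids. Their promoter windows (RefSeq, GRCm38.p6) are printed because both genes moved together, with every match to TGCNCNC, a loose form of the metal response element core, on either strand in capitals.

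Mt1, chr8:94178839-94179138, plus strand: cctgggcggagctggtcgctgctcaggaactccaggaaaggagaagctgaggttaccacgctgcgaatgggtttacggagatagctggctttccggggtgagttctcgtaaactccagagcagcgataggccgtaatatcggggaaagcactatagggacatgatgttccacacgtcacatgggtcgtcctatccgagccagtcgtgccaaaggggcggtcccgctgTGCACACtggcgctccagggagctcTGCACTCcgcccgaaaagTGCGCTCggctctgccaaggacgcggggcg
Mt2, chr8:94172368-94172667, plus strand: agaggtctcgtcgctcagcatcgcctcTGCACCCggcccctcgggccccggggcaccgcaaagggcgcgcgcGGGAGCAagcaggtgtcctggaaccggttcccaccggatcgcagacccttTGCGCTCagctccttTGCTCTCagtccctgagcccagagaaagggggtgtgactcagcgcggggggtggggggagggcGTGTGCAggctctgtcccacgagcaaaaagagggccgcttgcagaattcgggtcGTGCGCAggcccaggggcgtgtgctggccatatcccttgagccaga

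Mt1 holds 3 matches and Mt2 holds 6. At least 1 match occurs in 51.0% of all windows of this length, at least 3 in 7.1% and at least 6 in 0.225%. Of 15 listed genes of metallothioneins and iron handling 10 had a window. A match in at least 1 window was held by 5 of those, Cp, Mt1, Mt2, Mt3 and Tfrc, against 53.6% of all genes. Of these only Mt1 and Mt2 were called, and a part of the matches in the falls was not tested. Mt2 stood at 12.08, 12.11, 12.14, 12.22 and 12.26 at 6 months and at 11.28, 11.31, 11.38 and 11.39 at 18 months. The gap between the ages was several times the spread within either. Mt2 fell by 0.85 on the log2 scale (SE 0.109), 1.8-fold (limma adjusted p = 4.53e-05). Mt1 stood at 10.80, 10.81, 10.89, 10.94 and 11.06 at 6 months and at 10.24, 10.27, 10.28 and 10.33 at 18 months, and fell by 0.65 (SE 0.086), 1.57-fold (limma adjusted p = 6.7e-05). Mt3, the metallothionein found chiefly in brain, stood at 0.12 (limma adjusted p = 0.225). Both falls were larger with the chemosensory covariate, 1.04 for Mt2 and 0.80 for Mt1 on the log2 scale (limma adjusted p = 0.000385 for each), and both passed with every mouse left out in turn.

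Mt1, Mt2 and Per1 also stood on a list of 17 glucocorticoid response genes, of which 5 were lower and 0 higher, with a median of 0.02 that changed sign in 8 of the alternatives. The other two were Errfi1, an inhibitor of the EGF receptor (-0.28, limma adjusted p = 0.0152), and Pdk4, a kinase that shuts off pyruvate oxidation (-0.28, limma adjusted p = 0.0202). Widely used reporters of the receptor did not pass, with Fkbp5 at 0.03, Tsc22d3 at 0.20 and Sgk1 at -0.36 (limma adjusted p = 0.0604). Errfi1 and Pdk4 lost their calls with the chemosensory covariate. Errfi1 also missed without mouse WT-400 or WT-414 (limma adjusted p at most 0.0632), and Pdk4 without WT-400, WT-431 or WT-1020 (at most 0.0746). Of 15 genes of metallothioneins and iron handling, Mt1 and Mt2 were the 2 lower and 0 were higher, with the ferritin light chain gene Ftl1 at 0.29 (limma adjusted p = 0.0529).

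The 20 lower genes with a proper name and the smallest p, for which 1 clone-named gene, 0610010K14Rik (-0.51, limma adjusted p = 7.25e-06), was skipped, included none of the chemosensory receptors, and 11 of them passed with the chemosensory covariate. First was Pcsk1n, which encodes proSAAS, a neuronal protein that inhibits prohormone convertase 1. It stood at 11.57, 11.57, 11.63, 11.77 and 11.80 at 6 months, and at 10.67, 10.67, 10.70 and 11.03 at 18 months. Mouse WT-400 was the highest of the 18-month mice and still below every 6-month mouse. Pcsk1n fell by 0.90 on the log2 scale (SE 0.0794), 1.87-fold (limma adjusted p = 7.52e-08). Rnasek, which encodes a membrane protein associated with the vacuolar proton pump, stood at 10.37, 10.38, 10.40, 10.44 and 10.50 at 6 months and at 9.68, 9.77, 9.83 and 9.88 at 18 months. It fell by 0.62 (SE 0.063, limma adjusted p = 7.42e-07). Arf1, a GTPase of vesicle budding at the Golgi, stood at 11.74 to 11.93 at 6 months and at 11.13 to 11.35 at 18 months and fell by 0.63 (SE 0.0688, limma adjusted p = 2.57e-06), or by 0.46 when its 2 probe sets were averaged. Pcsk1n, Rnasek and Arf1 all passed with the chemosensory covariate. Its relative Arf3 fell by 0.43 (SE 0.067, limma adjusted p = 0.000404) and was lost with the chemosensory covariate (limma adjusted p = 0.166).

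Others of the 20 act in the endoplasmic reticulum. Dad1 and Krtcap2 encode subunits of the oligosaccharyltransferase that attaches sugars to nascent proteins. Dad1 stood at 11.49, 11.60, 11.60, 11.63 and 11.66 at 6 months and at 11.05, 11.07, 11.16 and 11.17 at 18 months. Krtcap2 stood at 9.82 to 9.95 and at 9.31 to 9.42, and neither gene's ages overlapped. Dad1 fell by 0.46 on the log2 scale (SE 0.0705, limma adjusted p = 0.000401) and Krtcap2 by 0.55 (SE 0.074, limma adjusted p = 6.77e-05), and both passed with the chemosensory covariate. Mlec, which encodes a lectin that reads those sugars, fell by 0.42 (SE 0.0594, limma adjusted p = 0.000149), with a limma adjusted p of 0.0583 with the covariate. On a list of 24 heat shock and folding genes, 2 were lower and 0 higher, with 22 of the 24 differences negative and a median of -0.11. The 2 were Sdf2l1 (-0.47, SE 0.103, limma adjusted p = 0.00661) and Creld2 (-0.32, SE 0.0835, limma adjusted p = 0.0202), which encode proteins of the endoplasmic reticulum that are induced when unfolded proteins build up.

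Creld2 stood at 7.97 to 8.38 at 6 months and at 7.70 to 7.94 at 18 months, and the major chaperone genes Hspa5 (-0.12), Hsp90b1 (-0.15), Calr (-0.08) and Hspa8 (-0.08) were not past the threshold. Its promoter window (RefSeq, GRCm38.p6) is shown because it holds the endoplasmic reticulum stress element (CCAAT and CCACG with a fixed spacer), in capitals, here on the opposite strand.

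Creld2, chr15:88819396-88819695, plus strand: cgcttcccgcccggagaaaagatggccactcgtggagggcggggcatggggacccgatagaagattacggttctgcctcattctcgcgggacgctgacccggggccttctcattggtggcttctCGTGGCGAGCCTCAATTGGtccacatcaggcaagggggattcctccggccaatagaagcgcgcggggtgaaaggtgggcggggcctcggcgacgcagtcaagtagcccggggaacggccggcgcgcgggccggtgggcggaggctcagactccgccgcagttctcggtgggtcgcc

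Of all windows 0.119% hold this element. In the list of 24, 18 genes had a window and 5 held it, Calr, Creld2, Hsp90b1, Hspa5 and Pdia6, against 0.137% of all genes, and 1 of those 5 was called. Sdf2l1, the other called gene of the list, was not among the 5. Sdf2l1 and Creld2 missed the threshold with the chemosensory covariate (limma adjusted p of 0.28 and 0.433), and Creld2 also without mouse WT-400, WT-414 or WT-1020 (0.0652 to 0.103).

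The remaining lower genes of the 20 had varied roles. Etv3, which encodes an ETS-family repressor, stood at 8.36 to 8.65 at 6 months and at 7.86 to 7.98 at 18 months and fell by 0.58 (SE 0.0749, limma adjusted p = 4.44e-05). Paics, an enzyme of purine synthesis, fell by 0.48 (SE 0.0684, limma adjusted p = 0.00015). Sike1, an inhibitor of antiviral kinases, fell by 0.67, and Tmem50b, a membrane protein of the endoplasmic reticulum, by 0.72. Armcx3, a protein of the outer mitochondrial membrane with 3 probe sets here, fell by 0.78. Polr2e, a subunit shared by the nuclear RNA polymerases, fell by 0.52, Eif4ebp2, a repressor of translation initiation, by 0.52, and Abi1, which regulates actin, by 0.42. Cbll1, a ubiquitin ligase, fell by 0.42, Fibp, a partner of fibroblast growth factor, by 0.51, and Lix1l by 0.47. Of all these Etv3, Paics, Tmem50b and Cbll1 passed with the chemosensory covariate, and each passed with every mouse left out in turn. Larger falls with wider spread were seen in Dnah6, a dynein of motile cilia (-1.02, limma adjusted p = 0.00612), and Stxbp4, a regulator of vesicle docking (-0.98, limma adjusted p = 0.00511). Neither passed with the covariate, and the mean over probe sets gave -0.88 for Dnah6 and -0.53 for Stxbp4.

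The 20 higher genes with the smallest p held 8 that were not chemosensory receptors, among them C4b. Chga encodes chromogranin A, a protein of dense-core vesicles that store peptides and amines. It stood at 9.55, 9.80, 9.81, 9.90 and 9.98 at 6 months and at 10.34, 10.46, 10.49 and 10.59 at 18 months, so the ages did not overlap. Chga rose by 0.71 (SE 0.112), 1.64-fold (limma adjusted p = 0.000404). Tkt encodes transketolase of the pentose phosphate pathway. It stood at 7.96, 7.99, 8.05, 8.06 and 8.11 at 6 months and at 8.45, 8.46, 8.47 and 8.61 at 18 months, and rose by 0.48 (SE 0.0704, limma adjusted p = 0.000217). Tmem141 rose by 0.46 (SE 0.0708, limma adjusted p = 0.000357), Dexi by 0.39 (SE 0.0616, limma adjusted p = 0.000404) and the pseudogene Nlrp5-ps by 1.0 (SE 0.163, limma adjusted p = 0.000668). All passed with the chemosensory covariate except Nlrp5-ps (limma adjusted p = 0.0679).

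Small RNAs of the nucleus made up the rest of the 8. Snord104, a box C/D RNA of the kind that guides methylation of ribosomal RNA, stood at 9.51, 9.70, 9.74, 9.87 and 10.01 at 6 months and at 10.97, 11.08, 11.56 and 11.59 at 18 months. It rose by 1.61 (SE 0.25), 3.05-fold (limma adjusted p = 0.000404), the largest difference among genes past the threshold. Snora44, a box H/ACA RNA of the kind that guides pseudouridylation, stood at 7.75 to 7.94 and at 8.64 to 9.28 and rose by 1.05 (SE 0.158, limma adjusted p = 0.000317). Both passed with the chemosensory covariate. Scarna13, a small RNA of Cajal bodies that was not among the 20, rose by 1.37 (SE 0.28, limma adjusted p = 0.0042), with a limma adjusted p of 0.0846 with the covariate. In all 5 of 54 measured small nucleolar and Cajal body RNAs were higher and 1 lower, beside 3.32% and 2.95% of all genes. This family was chosen after values were seen. Such RNAs are short and lie within introns of other genes, and the array probes do not tell a processed RNA from its host transcript.

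**Figure D2:**
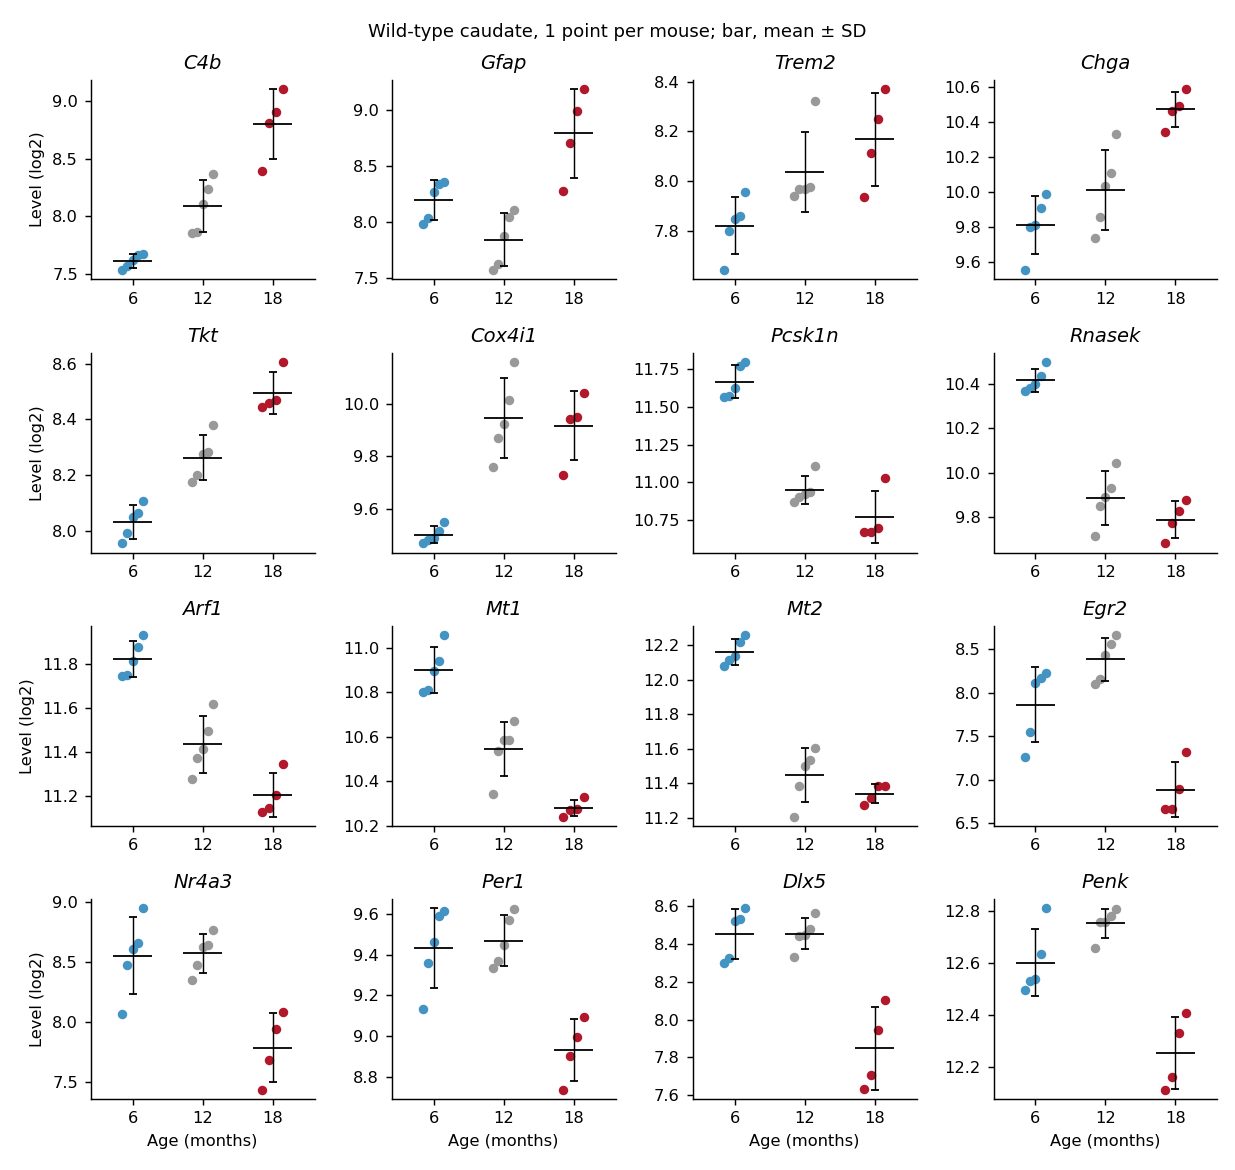
Level (log2) of 16 genes in each wild-type mouse at 6, 12 and 18 months (points), with the group mean ± SD. C4b at 18 months (8.39 to 9.11) and Chga (10.34 to 10.59) lie above all 6-month mice, Mt2 (11.28 to 11.39) and Pcsk1n (10.67 to 11.03) lie below them, and Egr2, Nr4a3, Per1 and Penk have their lowest mean at 18 months with the 12-month mean above that of 6 months.

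Genes of striatal projection neurons were lower at 18 months in 3 of 27 measured members and higher in 0, beside 2.95% and 3.32% of all genes. Of the 27 differences 22 were negative, with a median of -0.16. The 3 were Hpca, which encodes the calcium sensor hippocalcin (-0.42, SE 0.0985, limma adjusted p = 0.0121), Cnr1, the CB1 cannabinoid receptor (-0.40, SE 0.108, limma adjusted p = 0.0234), and Gnal, the G protein that couples dopamine receptors to adenylyl cyclase (-0.39, SE 0.106, limma adjusted p = 0.0239). Cnr1 stood at 8.43, 8.60, 8.72, 8.72 and 8.78 at 6 months and at 8.07, 8.18, 8.32 and 8.57 at 18 months, overlapping in 1 mouse of each age. Penk was the only called member of 10 indirect pathway genes. It stood at 12.49, 12.53, 12.54, 12.63 and 12.81 at 6 months and at 12.11, 12.16, 12.33 and 12.41 at 18 months, without overlap. Penk fell by 0.35 on the log2 scale (SE 0.0986, limma adjusted p = 0.0327). Of 9 direct pathway genes 0 passed by limma and 3 reached an unadjusted p below 0.05, with a median of -0.15. Among genes that define these cells and did not pass, Ppp1r1b stood at -0.28 (limma adjusted p = 0.099), Tac1 at -0.21, Pde10a at -0.16, Pdyn at -0.15, Drd1 at -0.14 and Drd2 at -0.11. Htt itself stood at -0.02 and Bdnf, a growth factor delivered to striatum from cortex, at 0.20. All 4 calls were lost with the chemosensory covariate (limma adjusted p from 0.299 for Cnr1 to 0.653 for Gnal). With single mice left out, Hpca missed without WT-431 (0.0542), Cnr1 without WT-414, WT-431, WT-1018 or WT-1020 (0.0548 to 0.094), Gnal without WT-401, WT-414, WT-431 or WT-1020 (0.0502 to 0.0557) and Penk without WT-400, WT-401, WT-1004, WT-1018 or WT-1020 (0.0594 to 0.112), all limma adjusted p.

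Of 27 neuroblast and progenitor genes, 3 were lower and 1 higher, with a median of -0.12. Dlx5, a homeobox gene of forebrain inhibitory neurons and their precursors, stood at 8.30, 8.33, 8.52, 8.53 and 8.59 at 6 months and at 7.63, 7.71, 7.95 and 8.11 at 18 months. The ages did not overlap, and Dlx5 fell by 0.62 on the log2 scale (SE 0.115, limma adjusted p = 0.00221). In the 12-month mice it stood at 8.33 to 8.56. Marcksl1 fell by 0.42 (limma adjusted p = 0.011) and the tubulin gene Tubb2b by 0.32 (limma adjusted p = 0.0417), both genes of growing neurons, while Hmgb2, a chromatin protein gene of dividing cells, rose by 0.44 (limma adjusted p = 0.0323). Dcx, the marker of migrating neuroblasts, stood at -0.03, and the proliferation markers Mki67 and Top2a at -0.03 each. The 4 calls were lost with the chemosensory covariate (Dlx5 -0.70, limma adjusted p = 0.0535). Dlx5 passed with each mouse left out, Marcksl1 missed without mouse WT-400 (0.0557), Hmgb2 without WT-400, WT-414, WT-431 or WT-1018 (0.0577 to 0.128) and Tubb2b without WT-400, WT-401, WT-1002, WT-1018 or WT-1020 (0.0832 to 0.152), all limma adjusted p.

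Genes of mature oligodendrocytes and of their precursors did not pass in wild type. Of 23 genes of mature oligodendrocytes, the myelin-forming cells, 0 passed by limma in either direction and 8 reached an unadjusted p below 0.05, with 17 differences positive and a median of 0.11. The protease gene Klk6 stood at 0.41 (limma adjusted p = 0.0519), the transferrin gene Trf at 0.30 (limma adjusted p = 0.0642) and the myelin basic protein gene Mbp at 0.17 (limma adjusted p = 0.107). Of 19 genes of newly formed oligodendrocytes, 1 was lower, Frmd4a (-0.27, limma adjusted p = 0.00999), and of 12 precursor genes 0 passed by limma (0 at an unadjusted p below 0.05). Frmd4a missed with the chemosensory covariate.

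Metabolic genes changed one by one. Of 43 respiratory chain genes, Cox4i1, a subunit of cytochrome c oxidase, was higher and Uqcrc2, a core subunit of complex III, was lower. Over all genes 3.32% were higher and 2.95% lower. Cox4i1 stood at 9.47, 9.48, 9.49, 9.51 and 9.55 at 6 months and at 9.73, 9.94, 9.95 and 10.04 at 18 months. Cox4i1 rose by 0.42 (SE 0.0746), 1.34-fold (limma adjusted p = 0.00167), and passed with the chemosensory covariate and with each mouse left out. The 12-month mice stood at 9.76 to 10.16. Uqcrc2 stood at -0.26 (limma adjusted p = 0.0252) and missed without mouse WT-400, WT-414, WT-1018 or WT-1020 (0.0522 to 0.137) and with the covariate. The list's median was -0.02, and 0.02 with the covariate. Named after their values were seen, the glycolytic enzyme gene Aldoa rose by 0.30 (SE 0.0587, limma adjusted p = 0.00336), the citrate synthase gene Cs by 0.25 (SE 0.0668, limma adjusted p = 0.0211) and the thyroid hormone receptor gene Thra by 0.30 (SE 0.0653, limma adjusted p = 0.00674). Thra stood at 11.29, 11.35, 11.42, 11.43 and 11.44 at 6 months and at 11.62, 11.63, 11.70 and 11.75 at 18 months, and its difference was 0.50 with the covariate (limma adjusted p = 0.000385). Aldoa and Cs also passed with it (0.37 and 0.42, limma adjusted p of 0.0262 and 0.0185), but Cs missed without mouse WT-400, WT-414, WT-1018 or WT-1020 (0.0513 to 0.0731). Of 18 genes of cholesterol synthesis, Fdps, which makes farnesyl pyrophosphate, was higher (0.40, limma adjusted p = 0.0154), though not without mouse WT-414 (0.0685) nor with the covariate.

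Protein degradation genes were also mixed. Of 31 proteasome subunit genes 1 was higher and 3 lower, beside 3.32% and 2.95% of all genes. Psmb5 stood at 0.21, Psmb2 at -0.29, Psmb4 at -0.36 and Psmd6 at -0.49 (limma adjusted p of 0.0325, 0.0232, 0.0478 and 0.0271). The median of the 31 was -0.12, but 0.01 with the chemosensory covariate, in which none of the 4 passed. Of 28 lysosomal genes, Hexa, a subunit of hexosaminidase, was higher by 0.31 (SE 0.0677, limma adjusted p = 0.00661). The lysosomal enzyme genes Ppt1 and Tpp1, both mutated in childhood lipofuscin storage disease, were lower by 0.30 and 0.23 on the log2 scale (limma adjusted p of 0.00938 and 0.0168), and both missed without mouse WT-400 (0.051 and 0.0591). All 3 missed with the covariate (Hexa 0.37, limma adjusted p = 0.0867). Each of the 4 proteasome calls missed without mouse WT-400, WT-414 or WT-1020, with limma adjusted p from 0.0551 to 0.243 over all mice whose removal ended a call.

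The 38 lists held 782 distinct measured genes, of which 15 were higher and 33 lower. That is 6.14%, beside 6.27% of all genes, and their median difference was -0.01, beside 0.03. In 17 of the lists no member passed by limma (42 of their 255 distinct genes at an unadjusted p below 0.05), among them markers of interneurons, thalamic neurons, ependyma, vessels, fibroblasts and blood, glutamate and GABA receptors, clustered protocadherins, histones, and genes of senescence and cell cycle arrest. Among 39 potassium channel genes, Kcna1 rose by 0.33 (limma adjusted p = 0.00593) and Kcnip4, a channel-interacting protein gene, fell by 0.46 on the log2 scale (limma adjusted p = 0.00417), the second of these not with the chemosensory covariate. Of 40 collagen and matrix genes 1 was lower, the prolyl hydroxylase gene P4ha1 (-0.35, limma adjusted p = 0.0242), which missed without mouse WT-400, WT-414, WT-431 or WT-1020 and with the covariate. Of 27 presynaptic genes 1 was higher, the synaptotagmin gene Syt5 (0.24, limma adjusted p = 0.0447), which missed with each mouse left out (limma adjusted p from 0.0583 to 0.116) but passed with the covariate (0.41, limma adjusted p = 0.0353).

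**Figure D3:**
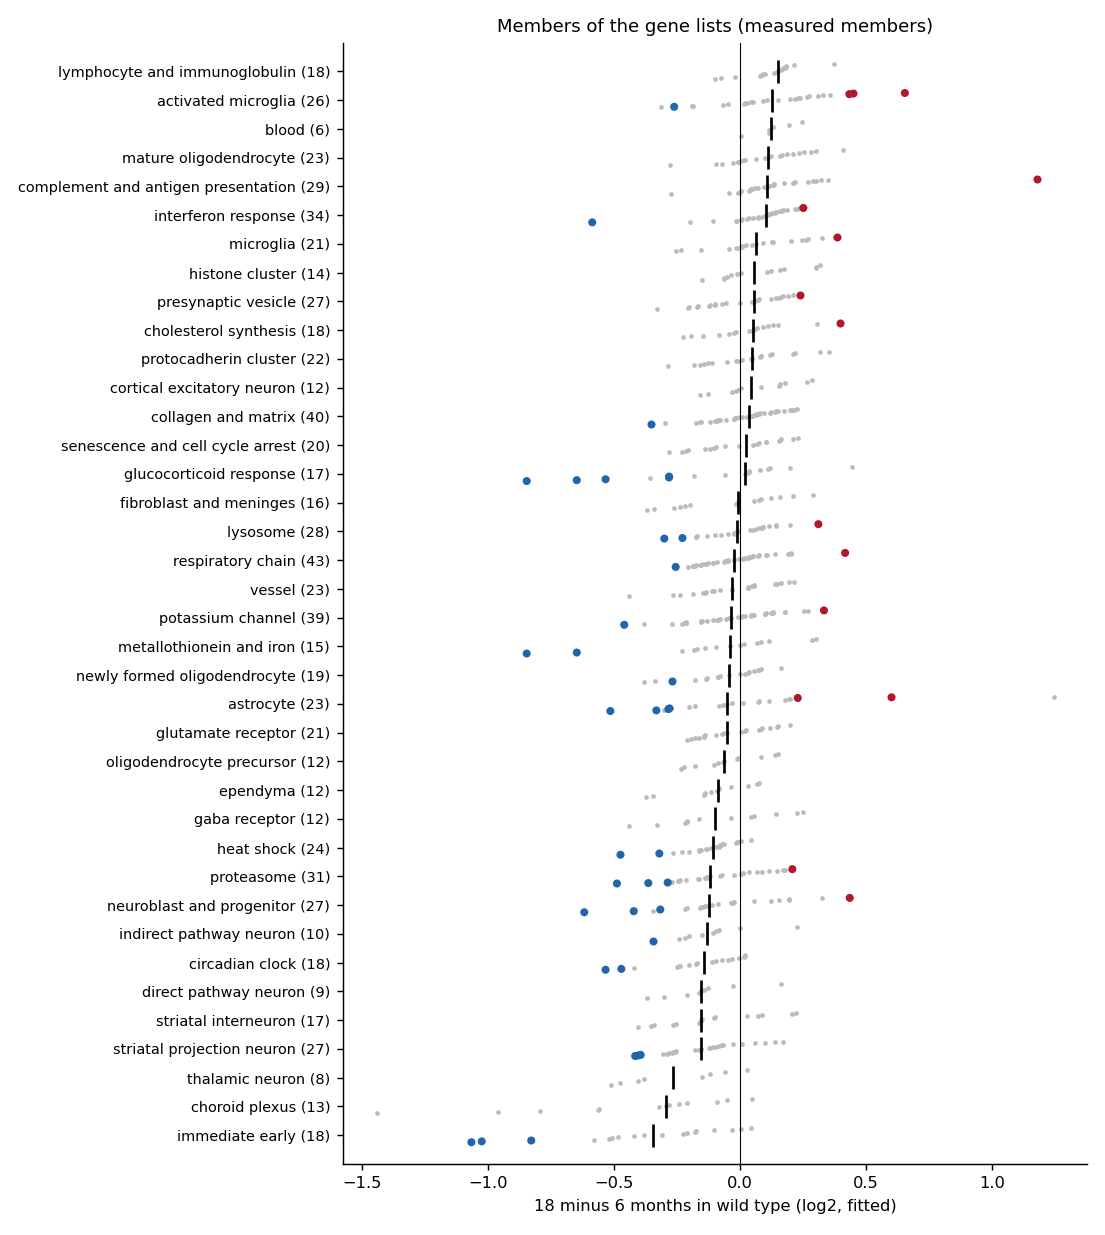
Fitted difference (18 minus 6 months, log2) of each measured member of 38 gene lists in wild type, with members past the threshold in red (higher) or blue (lower), others in grey and the list median as a bar. The lowest median is that of the immediate early genes (-0.34), and C4b (1.18) stands alone among complement genes.

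The same ages in HdhQ150 mice share no array with the wild-type comparison. In them 927 genes passed (4.65%), 2.28% of genes higher and 2.37% lower, and 1015 passed without mouse 1023. Called in both genotypes in the same direction were 339 genes, 161 higher and 178 lower, and 0 were called in opposite directions. They are 27.1% of the wild-type calls and 36.6% of the HdhQ150 calls. Of the 1250 wild-type calls, 1192 (95.4%) had the same sign in HdhQ150, against 63.5% of all genes, with a median size of 0.39 in wild type and 0.23 in HdhQ150 in the same direction. The dim shift was shared, with 151 of the 1228 chemosensory receptors higher and 0 lower in HdhQ150. Without the receptors, 233 of 892 wild-type calls (26.1%) were called in HdhQ150 too.

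The test of the difference between genotypes, the age change in HdhQ150 minus that in wild type, called 0 genes (0% of those tested) by limma. An unadjusted p below 0.05 was reached by 1629 genes (8.17%), the smallest adjusted p was 0.471, and with array weights 6 genes passed. Among the 40 properly named genes with the smallest p in wild type, 20 in each direction, all 40 had the same sign in HdhQ150 and 31 passed there. Pcsk1n fell from 11.89 ± 0.12 (SD, n = 5) to 10.93 ± 0.11 (n = 4) in HdhQ150, a difference of -0.96. C4b rose there from 7.69 ± 0.10 to 8.57 ± 0.13, by 0.87 against 1.18 in wild type. Mt2 stood at -0.74 in HdhQ150 and -0.85 in wild type, Egr2 at -1.0 and -1.07, Nr4a3 at -1.01 and -0.83, Per1 at -0.53 in both and Dlx5 at -0.63 and -0.62. Chga stood at 0.24 in HdhQ150 (limma adjusted p = 0.235) and 0.71 in wild type, and the difference between the 2 changes was -0.48 (limma adjusted p = 0.608).

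Some lists held more calls in HdhQ150, a difference in counts that was not tested. Of the 27 projection neuron genes 13 were lower there with a median of -0.28, against 3 and -0.16 in wild type. Penk fell by 0.66 on the log2 scale against 0.35, and the difference of -0.31 was not past the threshold (limma adjusted p = 0.61). Immediate early genes were lower in 7 of 18 in HdhQ150, with a median of -0.42, and 7 of the 23 mature oligodendrocyte genes were higher there, with a median of 0.27, against 0 in wild type. For Mbp the changes were 0.29 and 0.17, and their difference was 0.12 (limma adjusted p = 0.691).

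**Figure D4:**
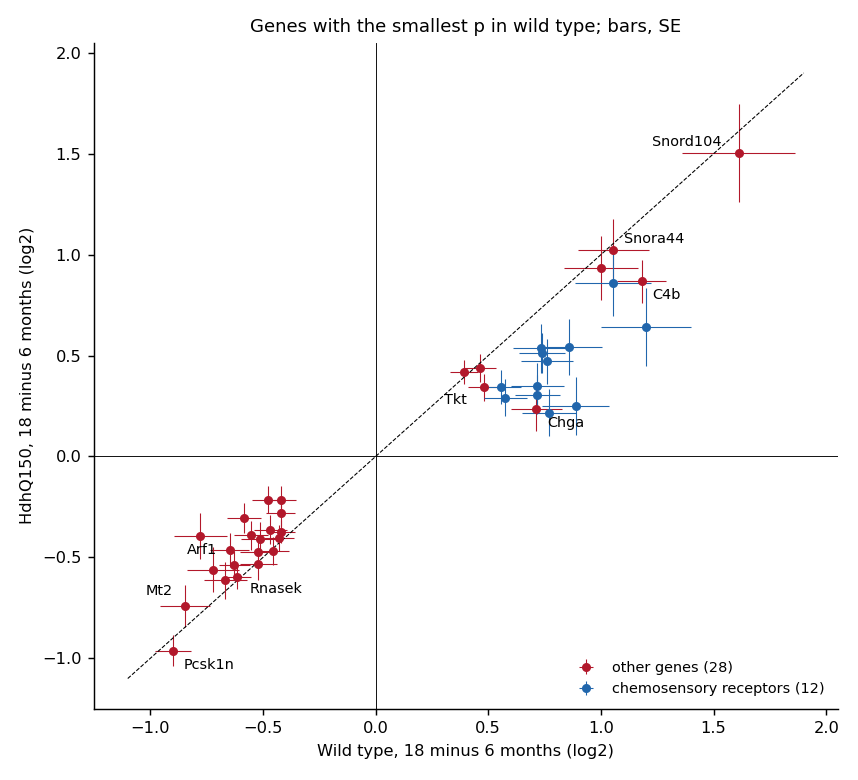
Age change (18 minus 6 months, log2) in HdhQ150 mice against that in wild-type mice for the 40 genes with the smallest p in wild type, with the SE of each fit as bars and the line of equality dashed. The genes were chosen on the wild-type axis, all 40 lie on the same side of 0 in both, and Pcsk1n (-0.90 and -0.96) and Snord104 (1.61 and 1.5) are near the line.

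The 12-month mice are different animals, so their values are set beside the other ages and are not a course within mice. Comparisons with them also share arrays with the one described. At 12 against 6 months 5121 genes passed (25.7%) and at 18 against 12 months 1171 (5.87%). Drd2 lay between 11.29 and 11.53 at 12 months, above all 6- and 18-month wild-type mice (10.60 to 10.92). Whether dissection or arrays differed at 12 months was not tested. Of the 40 genes with the smallest p, 31 had a 12-month mean between the other means. Rnasek stood at 9.89 at 12 months, near its 18-month mean of 9.79 and below 10.42 at 6 months, and Mt2 stood at 11.45, between 11.34 and 12.16. Snora44 (8.96) and Scarna13 (10.36) were likewise near or above their 18-month means of 8.85 and 10.36. C4b, Tkt and Chga stepped upward, with Tkt at 8.03, 8.26 and 8.49 and Chga at 9.81, 10.01 and 10.47 at the successive ages. Egr2 (8.39), Nr4a3 (8.57), Per1 (9.47) and Penk (12.75) had 12-month means above those of 6 months, and Dlx5 stood at 8.45 at both ages. Gfap was lower at 12 months (7.85) than at either other age (8.20 and 8.79).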

How the data were processed

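Caudate RNA, taken up by TRIzol-chloroform, was labelled with biotin and hybridised to Affymetrix whole-transcript arrays, 1 array per mouse, per the labels' protocols. The deposited table holds log2 expression values for 35556 probe sets, which the authors made with RMA in the Affymetrix Expression Console, per the submitters' processing notes, so background correction, quantile normalization and probe summary were already done. Array medians of these values lay between 6.91 and 7.05 over all 29 arrays. No scan date or array batch was given in the sources used here, so batch could not be tested. Arrays have no read depth, and the number of mice limits the precision. Where no label says more, each sample is taken as 1 mouse, and p-values measure the spread between these samples.

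Probe sets were named from the platform annotation. Of the 23410 named, 21789 had 1 symbol and 1621 several, and 12146 had none. Symbols were updated through the RefSeq table of GRCm38.p6 by gene identifier (21698 matched, 91 kept the annotation's name), used for names only. The probe set with the highest mean stood for a gene where several were listed (999 of 19938 genes). Of these, 86 were called, and 0 had another past the threshold in the opposite direction. Of 13767 probe sets without a single symbol, 756 were higher and 343 lower past the threshold.

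The model was run in limma 3.58.1 under R 4.3.3. It covered all 29 arrays, used a trended prior variance, and had 6 group means and the labelled sex, so all groups share 1 estimate of the spread. Two-sided p-values were Benjamini-Hochberg adjusted over 19938 genes, with a threshold of 0.05. The scripts were tested on simulated data. The text names the 20 genes with the smallest p and the 5 with the largest difference in each direction, fixed genes, and up to 6 members of each list (smallest p first), leaving out clone-like and predicted symbols (Rik, Gm and the like). Single small RNAs, metabolic genes and list members that missed the threshold were added after their values were seen. The members and the lists were chosen with earlier results of these data known. Alternatives covered the arrays fitted, sex, array weights, robust and untrended variance, dim genes, centring, probe sets, each mouse left out and, added after the data were seen, cyclic loess and the chemosensory mean as a covariate. Promoter windows came from the RefSeq promoter table of GRCm38.p6 and were searched on both strands.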

Additional observations from a re-analysis of the deposited data

Results flagged for a closer look

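In 4 of 62 groups of named genes tested, 1 mouse stood apart from the others of its age by Dixon's test, which chance does in about 1 of 20 groups. Serpina3n was highest in the 6-month mouse WT-1002, at 9.80 against 8.37 in the next mouse. Nr4a1 was lowest in the 6-month mouse WT-1002, at 9.0 against 10.07. Pcsk1n was highest in the 18-month mouse WT-400, at 11.03 against 10.70, and Tkt was highest in the 18-month mouse WT-414, at 8.61 against 8.47. Without the mouse that stood apart, Serpina3n passed the threshold, and Pcsk1n, Nr4a1 and Tkt kept their calls.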

How the results depend on the processing

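The count of 1250 wild-type calls was 248 when only the 9 arrays compared were fitted, 708 in females alone, 2395 with array weights, 694 in the brighter 50% of the genes, 2375 over all probe sets, 57 with the chemosensory covariate and 830 after cyclic loess. With 1 mouse left out it ranged from 490 to 2437. The HdhQ150 count of 927 was 598, 1646 without mice WT-454 and 1023, 2489 with array weights, 1601 over all probe sets and 148 with the covariate, where 598 is the fit of the 9 HdhQ150 arrays alone, and it ranged from 421 to 1015 with 1 mouse left out. The test of the genotypes' difference gave 6 genes with array weights. The other alternatives kept each count within 1.5 times. Cyclic loess and the covariate moved the median of all genes from 0.03 to 0.00 and -0.01. Of 6235 values of named genes under alternatives, 5770 kept direction and side of the threshold, 312 lost a call, 153 gained one and 0 reversed a called direction. The causes of these moves were not tested, beyond fewer arrays or genes where an alternative removes them. No paired analysis was possible because the mouse numbers differ between the groups. The table holds no detection call or background signal, so which dim genes lie above background is not known here.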
